A study of Mus musculus with 18 samples.

Results

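The comparison described here asks in which genes the effect of a C26 tumour on mouse skeletal muscle differed from the effect of an LLC tumour. It rests on 8 of the 18 RNA-seq libraries of a series on tibialis anterior (TA) muscle from several models of cancer cachexia. The 8 libraries were taken by their labels and form 4 groups of 2. C26 is a mouse colon carcinoma line, and the C26 tumour group held CD2F1 mice that received C26 cells under the skin, with CD2F1 mice given PBS as C26 controls. LLC is the Lewis lung carcinoma line, and the LLC tumour group held C57BL/6 mice that received LLC cells into muscle, with C57BL/6 mice given PBS as LLC controls. Age, sex, tumour size, the muscle injected and the hour at which muscle was collected were not stated in the labels. Strain, injection site and tumour line change together between both models, so their shares in any difference cannot be told apart. Each effect is the log2 fold change of tumour over control within a model, and the difference of effects is the C26 effect minus the LLC effect. A positive difference therefore means a higher effect in the C26 model, either because a gene rose more or because it fell less.

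Cachexia is the loss of muscle and fat that accompanies some cancers. In muscle it is known for raised ubiquitin ligases such as atrogin-1 and MuRF1, which mark myofibrillar proteins for the proteasome, and for signalling by glucocorticoids, by IL-6 family cytokines through STAT3 and by members of the TNF receptor family through NF-kB. The C26 model is classically tied to circulating IL-6, and both lines are standard models in which muscle wasting is studied.

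Gene counts in the 8 libraries lay between 22651338 and 31287213. All 8 had the profile of fast skeletal muscle, with Acta1 (skeletal actin) at 5795 CPM or more, Ckm (muscle creatine kinase) at 7687 CPM or more and Myh4 (fast myosin heavy chain) at 15216 CPM or more, where CPM is the count divided by the scaled library size. The share of counts from mitochondrial genes was 11% and 5.94% in the C26 tumour libraries and 14.6% and 21.5% in the C26 controls, against 16.9% and 12.1% in the LLC tumour libraries and 21.6% and 20.5% in the LLC controls. C26 tumour replicate 2 stood apart with the lowest mitochondrial share and the lowest share of counts in its 10 most abundant genes, at 15.5%. The controls of both models also differed from each other, with 502 of 16096 genes (3.12%) called between C26 controls and LLC controls, 280 (1.74%) of them higher and 222 (1.38%) lower in C26 controls.

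Genes called in both models mostly moved in the same direction, and few differences of effects were called. A gene without a called difference may still differ. The C26 effect was called for 3422 of 16096 tested genes (21.3%) and the LLC effect for 2191 (13.6%), at an adjusted p under 0.05 by the quasi-likelihood test of edgeR after Benjamini-Hochberg adjustment. Of the 1246 genes called in both effects, 1232 moved in the same direction, 622 of them up and 610 down, and 14 (1.12%) moved in opposite directions. These comparisons share no control libraries, and the log2 effects of both models had a Pearson r of 0.411 over all tested genes and of 0.628 over the 9803 genes with at least 5 CPM in some group, as a description of genes that share libraries. The difference of effects itself was called for 75 genes (0.466%), with the C26 effect above the LLC effect in 32 (0.199%) and below it in 43 (0.267%). At an unadjusted p under 0.05 there were 2008 genes (12.5%), and DESeq2 called 379 (2.35%), 153 higher (0.951%) and 226 lower (1.4%).

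Most of the 75 genes were called in 1 model. In 21 the C26 tumour group rose and no LLC effect was called, and in 23 it fell and no LLC effect was called. In 10 genes the LLC tumour group rose without a called C26 effect, and in 5 it fell without one. Opposite calls made up 12 genes, with 5 up in C26 and down in LLC and 7 down in C26 and up in LLC. The last 4 fell in both models by different amounts. The size of the C26 effect exceeded that of the LLC effect in 53 of the 75. In 14 of the 75 the controls of both models also differed, beside 3.12% of all genes. The same control libraries enter both tests, so this overlap says nothing further about the 75. In all 75 the 4 differences between a C26 tumour and a C26 control library did not overlap the 4 LLC differences, as in 34.2% of all tested genes.

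With 2 libraries per group, the calls changed when a single library was left out. The count of 75 became 208 without C26 tumour replicate 1, 18 without C26 tumour replicate 2, 5 without C26 control replicate 1 and 0 without C26 control replicate 2, where 1705 genes had an unadjusted p under 0.05. It became 4 without LLC tumour replicate 1, 19 without LLC tumour replicate 2, 5 without LLC control replicate 1 and 8 without LLC control replicate 2. The spread of a group left with 1 library was taken from the remaining groups. The filter on low counts was also applied anew in each of these fits, which tested 16978 to 17086 genes instead of 16096. The sign of the difference held in all 8 of these fits for all 75 genes. Dbp was the gene most often kept, in 7 of the 8. In data simulated for this contrast, 52% of 4-fold differences and 5% of 2-fold differences were recovered, so genes that are not called below may still differ. Genes with low mean counts were not among those changed, and all other genes were simulated without a C26 or LLC effect. These rates therefore do not cover genes with few counts.

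**Figure D1:**
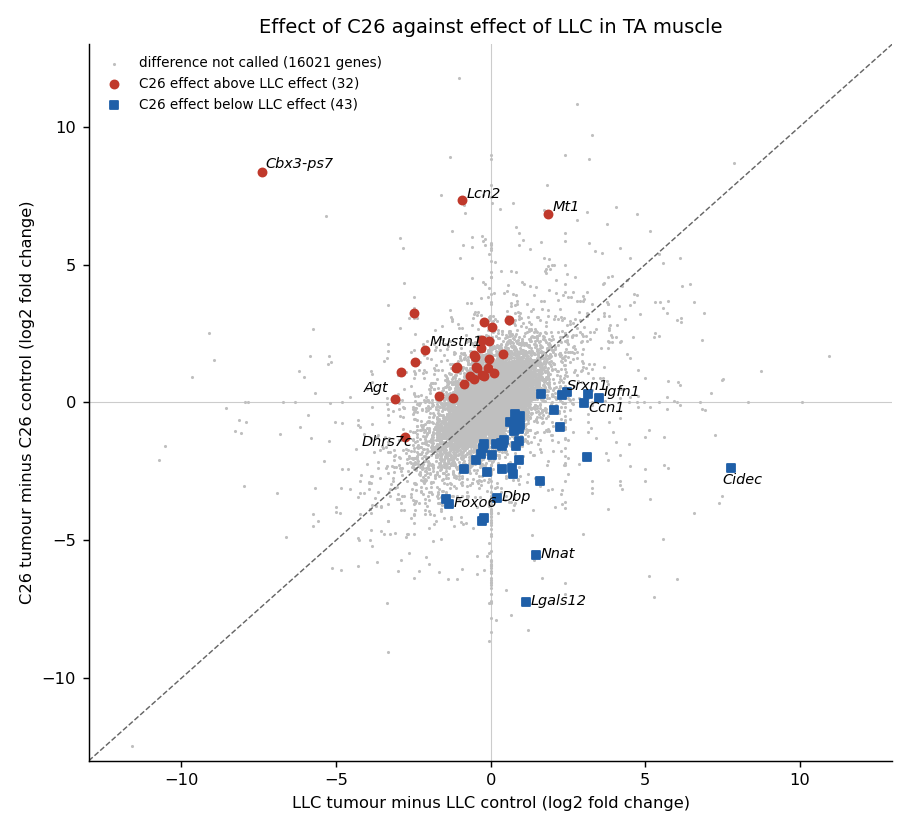
Log2 fold change of C26 tumour over C26 control (vertical axis) against LLC tumour over LLC control (horizontal axis) for 16096 genes, 2 libraries per group. The dashed line marks equal effects. Red circles mark 32 genes and blue squares 43 genes whose effects differed at an adjusted p under 0.05 (edgeR), with Lcn2 and Mt1 far above the line and Dbp, Nnat and Lgals12 far below it. The positions of Cbx3-ps7, Cidec and Lgals12, which had groups with 0 counts, depend on the prior count of the fit.

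The acute-phase genes Lcn2 and Lrg1 had a higher effect in C26 than in LLC. Acute-phase proteins are made in inflammation, and several of their genes are targets of STAT3, the transcription factor that IL-6 family receptors activate. Lcn2 encodes lipocalin-2, an iron-siderophore binding protein of the acute phase that neutrophils also store, at chr2:32384633-32388252 on the minus strand of GRCm38. Lcn2 had 51.5 and 113 CPM in C26 tumour muscle and 0.469 and 0.542 CPM in C26 control muscle, against 0.636 and 0.743 CPM in LLC tumour muscle and 2.12 and 0.564 CPM in LLC control muscle. Both C26 tumour libraries lay far above the 6 others, and the LLC groups overlapped. The difference of effects was 8.26 ± 1.11 on the log2 scale (SE, edgeR adjusted p = 0.0124). Leaving out a single library gave values of 7.0 to 8.92 and kept the call in 4 of 8 fits.

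Lrg1, a secreted leucine-rich glycoprotein of the acute phase, had 38.0 and 58.2 CPM in C26 tumour muscle and 13 and 11.7 CPM in C26 control muscle, against 9.74 and 13 CPM in LLC tumour muscle and 13.4 and 14.7 CPM in LLC control muscle. It was high only in the C26 tumour libraries, where the difference of effects was 2.26 ± 0.45 (edgeR adjusted p = 0.0481). Serpina3n, a serine protease inhibitor of the acute phase, had 141 and 754 CPM in C26 tumour muscle and 3.53 and 3.38 CPM in C26 control muscle, against 0.477 and 1.15 CPM in LLC tumour muscle and 0.934 and 0.413 CPM in LLC control muscle. The C26 tumour libraries were the highest but differed widely from each other, and the difference of 6.71 ± 1.47 was not called (edgeR adjusted p = 0.0705).

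Of the 35 tested members of a list of IL-6 family receptors, STAT3 signalling and acute-phase genes, 20 rose and 0 fell under C26, while 9 rose and 2 fell under LLC. These counts stand beside 11.5% and 9.8% of all genes that rose and fell under C26 and 7.39% and 6.23% under LLC. The median effect of the list was 1.21 for C26 and 0.25 for LLC. The median difference was 0.76, beside 0.03 over all tested genes, and 2 members, Lcn2 and Lrg1, were called. The median stayed between 0.35 and 0.85 in 16 alternative fits. The signalling genes themselves were less clear than the secreted products. Socs3, the feedback inhibitor induced by STAT3, had 29.4 and 25.9 CPM in C26 tumour muscle and 5.15 and 4.40 CPM in C26 control muscle, against 3.18 and 3.27 CPM in LLC tumour muscle and 3.27 and 2.86 CPM in LLC control muscle. The C26 groups were separate and the LLC groups overlapped, but the difference of 2.46 ± 1.12 was not called (edgeR adjusted p = 0.389, 95% interval 0.06 to 4.86). Osmr, the oncostatin M receptor, and Stat3 differed by 1.21 ± 0.56 and 1.07 ± 0.51, also without a call (edgeR adjusted p = 0.391 and 0.406).

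Lcn2 also belongs to the list of neutrophil markers. The summed level of 18 listed markers was 62.5 and 141 CPM in C26 tumour muscle and 2.70 and 3.35 CPM in C26 control muscle, against 9.82 and 8.62 CPM in LLC tumour muscle and 5.77 and 2.18 CPM in LLC control muscle. Lcn2 made up most of the C26 tumour sum. Without Lcn2 the sums were 11 and 28.5 CPM in C26 tumour muscle and 2.23 and 2.80 CPM in C26 control muscle, against 9.19 and 7.88 CPM in LLC tumour muscle and 3.65 and 1.62 CPM in LLC control muscle. S100a8, a calcium-binding protein abundant in neutrophils, had 4.25 and 19.9 CPM in C26 tumour muscle and 0.216 and 0.0319 CPM in C26 control muscle, against 1.67 and 1.15 CPM in LLC tumour muscle and 0.340 and 0.0751 CPM in LLC control muscle. Its difference of 3.83 ± 1.88 was not called (edgeR adjusted p = 0.426). Of 14 tested neutrophil markers, Lcn2 alone was called for the difference, and 5 rose under C26 and 3 under LLC (11.5% and 7.39% of all genes). The part of neutrophils in the Lcn2 result was not tested. In these whole-muscle samples, a change in the share of a cell type and a change of RNA per cell cannot be told apart.

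Metallothioneins are small cysteine-rich proteins that bind zinc and copper and are induced by metals, glucocorticoids and inflammation, and Mt1 rose more in C26. Mt1 had 530 and 1434 CPM in C26 tumour muscle and 9.26 and 7.77 CPM in C26 control muscle, against 14.8 and 43.0 CPM in LLC tumour muscle and 9.51 and 6.54 CPM in LLC control muscle. Every tumour library lay above every control library of its model, and the C26 tumour values were well above the LLC tumour values. The C26 effect was 6.85 ± 0.78 (edgeR adjusted p = 0.000121), the LLC effect 1.85 ± 0.64 (edgeR adjusted p = 0.0719) and the difference 5.00 ± 0.92 (edgeR adjusted p = 0.0413). The call held in 1 of 8 fits without a library, with values of 4.10 to 5.95.

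Mt2 had 715 and 1479 CPM in C26 tumour muscle and 2.67 and 2.13 CPM in C26 control muscle, against 8.07 and 49.1 CPM in LLC tumour muscle and 5.05 and 1.35 CPM in LLC control muscle. As for Mt1, the C26 tumour libraries were highest and the LLC tumour libraries next, and Mt2 rose in both models, by 8.84 ± 1.07 in C26 and 3.17 ± 0.86 in LLC (edgeR adjusted p = 0.000177 and 0.0267). The difference of 5.66 ± 1.22 narrowly missed the threshold (edgeR adjusted p = 0.0629). Slc39a14, a zinc importer also known as ZIP14, had 36.6 and 263 CPM in C26 tumour muscle and 11 and 8.73 CPM in C26 control muscle, against 11.3 and 20.1 CPM in LLC tumour muscle and 10.4 and 8.68 CPM in LLC control muscle. The C26 tumour libraries were highest and far apart from each other, and the difference was not called (3.20 ± 1.04, edgeR adjusted p = 0.219). Among the 13 tested members of the metallothionein and zinc transport list, the interaction was called for Mt1 alone.

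Mt1 and Mt2 lie next to each other on chromosome 8. Their promoters are shown because the genes moved together and because MTF-1, the zinc-sensing factor that induces metallothioneins, is known to bind metal response elements. The pattern searched here was TGCNCNC, with N as any base. It is loose and can mark letters that are not such an element. The windows run from 250 bases before to 50 bases after the start in RefSeq on GRCm38.p6, at chr8:94178839-94179138 for Mt1 and chr8:94172368-94172667 for Mt2, both on the plus strand. Capitals mark TGCNCNC on either strand.
Mt1: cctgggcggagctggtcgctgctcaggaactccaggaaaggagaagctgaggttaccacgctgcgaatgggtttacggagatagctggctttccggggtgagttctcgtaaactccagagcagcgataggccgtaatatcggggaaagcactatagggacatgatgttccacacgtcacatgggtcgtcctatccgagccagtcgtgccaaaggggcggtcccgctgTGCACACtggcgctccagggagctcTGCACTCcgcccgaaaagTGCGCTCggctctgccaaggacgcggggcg
Mt2: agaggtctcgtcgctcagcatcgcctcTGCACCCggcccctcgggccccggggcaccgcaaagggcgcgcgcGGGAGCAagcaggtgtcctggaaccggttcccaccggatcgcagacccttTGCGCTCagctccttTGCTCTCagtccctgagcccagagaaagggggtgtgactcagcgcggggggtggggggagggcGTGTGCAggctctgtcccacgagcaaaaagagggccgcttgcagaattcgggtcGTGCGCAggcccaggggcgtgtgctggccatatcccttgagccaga
The Mt1 window held 3 matches, all on the strand shown, and the Mt2 window held 6, with 3 on each strand. Of 32851 windows of the same length over all RefSeq promoters, 51% held at least 1 match, 7.1% at least 3 and 0.225% at least 6. A match is a description of these letters and was not tested as a site.

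The clock output genes Dbp, Hlf and Tef had lower effects in C26 than in LLC. They encode the PAR bZIP transcription factors, which the core circadian clock drives in a daily rhythm and which set the rhythm of many metabolic genes. The Dbp gene lies at chr7:45705088-45710203 on the plus strand of GRCm38. Dbp had 12.1 and 15.2 CPM in C26 tumour muscle and 154 and 149 CPM in C26 control muscle, against 140 and 106 CPM in LLC tumour muscle and 114 and 102 CPM in LLC control muscle. The C26 tumour libraries lay far below the other 6, and the LLC groups overlapped. Dbp fell by 3.47 ± 0.33 on the log2 scale in C26 (edgeR adjusted p = 4.5e-05), its LLC effect was 0.19 ± 0.30, and the difference of -3.66 ± 0.44 had the smallest adjusted p of all genes (edgeR, 0.0121).

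Hlf had 4.92 and 4.37 CPM in C26 tumour muscle and 17.0 and 17.6 CPM in C26 control muscle, against 10.3 and 10.2 CPM in LLC tumour muscle and 8.87 and 11.2 CPM in LLC control muscle. It was lowest in C26 tumour muscle and highest in C26 control muscle, with a difference of -1.93 ± 0.29 (edgeR adjusted p = 0.0176). The Hlf controls differed too, by 0.78 for C26 over LLC controls (edgeR adjusted p = 0.0499). Tef had 219 and 207 CPM in C26 tumour muscle and 289 and 279 CPM in C26 control muscle, against 380 and 404 CPM in LLC tumour muscle and 217 and 232 CPM in LLC control muscle. Tef differed in the other model: it rose by 0.80 ± 0.15 under LLC (edgeR adjusted p = 0.00349), while the C26 value of -0.41 ± 0.15 was not called, and the difference was -1.22 ± 0.21 (edgeR adjusted p = 0.0302).

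The core clock genes were not called for the difference, and as for Hlf, the controls of Arntl and Per2 were unlike. Arntl encodes BMAL1, the activator of the clock loop, and had 16.5 and 17.5 CPM in C26 tumour muscle and 2.52 and 3.70 CPM in C26 control muscle, against 11.7 and 12.7 CPM in LLC tumour muscle and 11 and 16.3 CPM in LLC control muscle. Per2, a repressor of the same loop, had 14.7 and 19.6 CPM in C26 tumour muscle and 25.6 and 22.8 CPM in C26 control muscle, against 19.3 and 28.4 CPM in LLC tumour muscle and 6.20 and 6.91 CPM in LLC control muscle. The C26 controls were the low group for Arntl, and the LLC controls were the low group for Per2. C26 controls differed from LLC controls by -2.13 for Arntl and 1.88 for Per2 (edgeR adjusted p = 0.0144 and 0.0188), and the differences of effects were 2.61 ± 0.59 and -2.36 ± 0.55 (edgeR adjusted p = 0.0799 and 0.0871). Of the 19 clock genes tested, 3 were called for the difference, all lower, beside 0.267% of all genes. At an unadjusted p under 0.05, 8 were lower and 3 higher (6.14% and 6.34% of all genes), and DESeq2 called 4 lower and 1 higher (1.4% and 0.951%). The median difference was -0.85, between -0.99 and -0.53 in 16 alternative fits. With collection hours not given, a shift of sampling time and an effect of tumour on the clock cannot be told apart.

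The Tef promoter is shown because BMAL1 and its partner CLOCK are known to bind the E-box CACGTG. The window lies at chr15:81802423-81802722 on the plus strand of GRCm38.p6 (RefSeq), with the E-box in capitals.
Tef: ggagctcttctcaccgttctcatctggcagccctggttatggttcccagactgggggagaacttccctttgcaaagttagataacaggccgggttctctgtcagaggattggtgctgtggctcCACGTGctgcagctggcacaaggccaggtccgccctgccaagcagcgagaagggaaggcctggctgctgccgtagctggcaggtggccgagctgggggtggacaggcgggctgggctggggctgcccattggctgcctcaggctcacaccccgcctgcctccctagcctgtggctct
It held 1 match, as did the window of the other annotated Tef start, while the windows of Dbp and Hlf held 0. CACGTG reads alike on both strands and was found in 7.15% of all windows. For Dbp, the absence says nothing beyond these 300 letters.

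**Figure D2:**
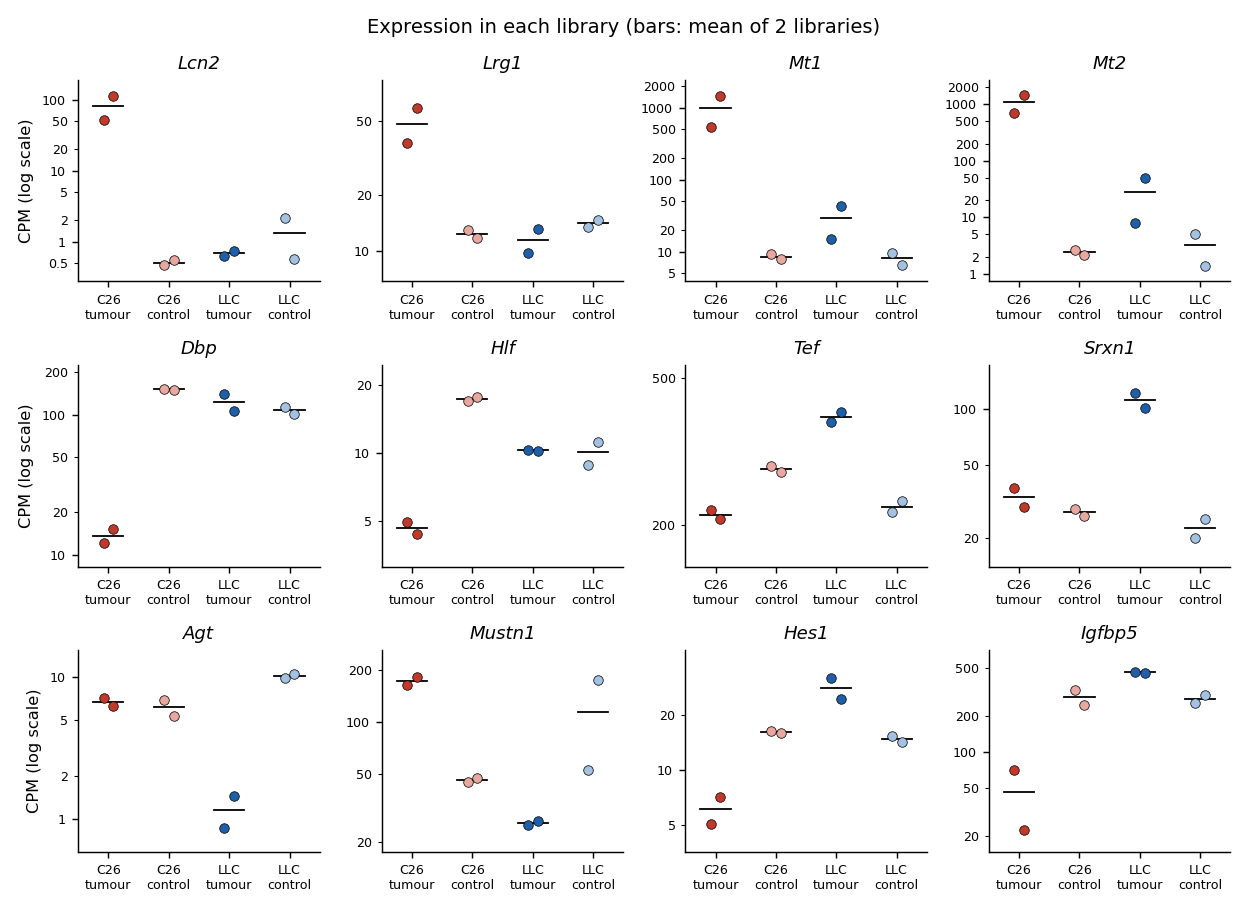
CPM on a log scale in each of the 8 libraries for 12 genes, with a bar at the mean of 2 libraries. Lcn2, Lrg1, Mt1 and Mt2 were highest in C26 tumour muscle, Dbp and Hlf lowest there, Srxn1 and Tef were highest and Agt lowest in LLC tumour muscle, and Mustn1, Hes1 and Igfbp5 had their extremes in the tumour groups of both models.

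Srxn1, an antioxidant gene under the factor NRF2, rose more under LLC. NRF2 binds antioxidant response elements and induces enzymes that handle peroxides and quinones. Srxn1 encodes sulfiredoxin, which repairs oxidised peroxiredoxins, and had 37.2 and 29.5 CPM in C26 tumour muscle and 28.5 and 26.3 CPM in C26 control muscle, against 123 and 102 CPM in LLC tumour muscle and 19.8 and 25.2 CPM in LLC control muscle. Only the LLC tumour libraries stood out. Srxn1 rose by 2.32 ± 0.21 under LLC (edgeR adjusted p = 4.48e-05), beside 0.28 ± 0.20 in C26, and the difference was -2.03 ± 0.28 (edgeR adjusted p = 0.0124). Nqo1, a quinone reductase that is a standard NRF2 target, had 19.4 and 19.8 CPM in C26 tumour muscle and 11.5 and 15.5 CPM in C26 control muscle, against 58.4 and 48.2 CPM in LLC tumour muscle and 11.5 and 13 CPM in LLC control muscle. It followed the pattern of Srxn1 without a called difference (-1.58 ± 0.37, edgeR adjusted p = 0.0886).

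Ephx1, microsomal epoxide hydrolase, was called with another pattern: it fell by 1.49 on the log2 scale in C26 (edgeR adjusted p = 0.00091), beside 0.41 in LLC, giving a difference of -1.90 ± 0.33 (edgeR adjusted p = 0.0303). Of the 33 tested members of the NRF2 list, 11 rose and 2 fell under C26 and 18 rose and 1 fell under LLC. Among all genes, 11.5% rose and 9.8% fell under C26, and 7.39% rose and 6.23% fell under LLC. The difference was called for 2, both lower (0.267% of all genes). At an unadjusted p under 0.05, 11 were lower and 1 higher (6.14% and 6.34% of all genes). The median difference was -0.40, between -0.62 and -0.39 in 16 alternative fits. The Srxn1 promoter is shown for the antioxidant response element TGANTCAGC, in capitals, in the window chr2:152105274-152105573 on the plus strand of GRCm38.p6 (RefSeq).
Srxn1: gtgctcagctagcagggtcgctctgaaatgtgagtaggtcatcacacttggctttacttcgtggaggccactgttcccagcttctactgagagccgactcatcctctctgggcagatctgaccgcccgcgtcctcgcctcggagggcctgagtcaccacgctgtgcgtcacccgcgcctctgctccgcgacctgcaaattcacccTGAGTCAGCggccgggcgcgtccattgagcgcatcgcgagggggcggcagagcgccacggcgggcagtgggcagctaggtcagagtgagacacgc
The window held 1 match on the strand shown, and 1.19% of all windows held at least 1 on either strand.

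Cytosolic ribosomal protein genes rose together in C26, with few calls in LLC. They encode the protein subunits of the ribosome and are present at high level in every cell. Under C26, 65 of 71 rose and 1 fell, and under LLC 2 rose and 1 fell. These counts stand beside 11.5% and 9.8% of all genes under C26 and 7.39% and 6.23% under LLC. The median effect was 0.91 in C26 and 0.11 in LLC. All 71 had a positive difference of effects, with a median of 0.81, but edgeR called 0 of them. At an unadjusted p under 0.05, 59 were higher (6.34% of all genes were), and DESeq2 called 12 (0.951% of all genes higher). The median stayed between 0.63 and 0.89 in 16 alternative fits. Of the 71 genes, 9 were called lower and 0 higher in C26 than in LLC controls (1.38% and 1.74% of all genes). The median for C26 over LLC controls was -0.27. The summed level was 11797.7 and 13848.2 CPM in C26 controls and 18089.4 and 16352.5 CPM in LLC controls. In tumour muscle it was 21199 and 24925.2 CPM for C26 and 17913.5 and 16808.3 CPM for LLC. How much of the difference of effects rests on the low C26 control level was not tested. Rps28 had 205 and 257 CPM in C26 tumour muscle and 82.4 and 93.2 CPM in C26 control muscle, against 133 and 128 CPM in LLC tumour muscle and 131 and 110 CPM in LLC control muscle. The C26 groups were separate and the LLC groups overlapped, with a difference of 1.29 ± 0.29 (edgeR adjusted p = 0.0731). Rplp0, a stalk protein of the large subunit, had 491 and 613 CPM in C26 tumour muscle and 271 and 331 CPM in C26 control muscle, against 625 and 623 CPM in LLC tumour muscle and 749 and 700 CPM in LLC control muscle. Its C26 controls were below its LLC controls by 1.27 on the log2 scale (a difference of -1.27, edgeR adjusted p = 0.00258), so the C26 tumour level did not exceed that of either LLC group. Ribosomal protein genes have many processed pseudogene copies, and how reads were shared among them is uncertain. Genes of ribosome biogenesis, by contrast, rose in 24 of 36 under each tumour, with median effects of 0.83 in C26 and 0.77 in LLC.

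Several genes of signalling, matrix and transport rose or fell in LLC without a called C26 effect. Ccn1, a matricellular protein induced by growth factors and mechanical load, had 50.6 and 26.4 CPM in C26 tumour muscle and 38.6 and 39.1 CPM in C26 control muscle, against 106 and 152 CPM in LLC tumour muscle and 12 and 19.5 CPM in LLC control muscle. The C26 groups overlapped and the LLC groups were far apart, and the difference was -3.04 ± 0.40 (edgeR adjusted p = 0.0124). The Ccn1 controls differed too, with means of 38.8 CPM in C26 and 15.8 CPM in LLC controls (edgeR adjusted p = 0.0216). Agt encodes angiotensinogen, the precursor of angiotensin II. It had 7.08 and 6.27 CPM in C26 tumour muscle and 6.85 and 5.32 CPM in C26 control muscle, against 0.875 and 1.45 CPM in LLC tumour muscle and 9.72 and 10.4 CPM in LLC control muscle. Agt fell by 3.11 ± 0.33 under LLC (edgeR adjusted p = 0.000143) and differed between the effects by 3.24 ± 0.44 (edgeR adjusted p = 0.0124).

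Slc6a9, the glycine transporter GlyT1, had 5.75 and 7.37 CPM in C26 tumour muscle and 5.73 and 4.91 CPM in C26 control muscle, against 31.1 and 29.1 CPM in LLC tumour muscle and 2.55 and 4.13 CPM in LLC control muscle. Its rise was seen in the LLC libraries alone (difference -2.86 ± 0.58, edgeR adjusted p = 0.0495). Igfn1, an immunoglobulin and fibronectin domain protein of the muscle Z-disc, had 55.2 and 49.1 CPM in C26 tumour muscle and 29.5 and 64.9 CPM in C26 control muscle, against 355 and 119 CPM in LLC tumour muscle and 15.5 and 25.8 CPM in LLC control muscle. The C26 groups overlapped and the LLC groups did not (difference -3.37 ± 0.68, edgeR adjusted p = 0.0494). Mid1ip1, a regulator of acetyl-CoA carboxylase, Slc44a1, a choline transporter, and Flrt1, a leucine-rich adhesion protein, also rose under LLC without a called C26 effect, and differed by -2.07, -1.44 and -3.14. The Mid1ip1 controls differed too, with means of 73.4 CPM in C26 and 25.9 CPM in LLC controls (edgeR adjusted p = 0.00173). Ano5, a membrane protein mutated in a limb-girdle muscular dystrophy, and Dtna, a dystrobrevin of the dystrophin complex, fell under LLC without a called C26 effect and differed by 1.89 and 1.37. Their controls also differed (edgeR adjusted p = 0.0443 and 0.0287). Mean control levels of Ano5 were 90.4 CPM in C26 and 185 CPM in LLC, and those of Dtna 68.2 and 123 CPM.

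Genes that fell in C26 without a called LLC effect included growth and metabolic regulators. Igfbp5, an IGF-binding protein abundant in differentiating muscle, had 71.3 and 22.5 CPM in C26 tumour muscle and 326 and 245 CPM in C26 control muscle, against 463 and 454 CPM in LLC tumour muscle and 256 and 299 CPM in LLC control muscle. It fell by 2.61 ± 0.46 in C26 (edgeR adjusted p = 0.00189), its LLC value of 0.73 ± 0.44 was not called, and the difference was -3.33 ± 0.63 (edgeR adjusted p = 0.0454). Prkag3, the gamma subunit of AMP-activated kinase found mainly in fast muscle, had 24.6 and 14.9 CPM in C26 tumour muscle and 108 and 119 CPM in C26 control muscle, against 106 and 124 CPM in LLC tumour muscle and 116 and 131 CPM in LLC control muscle. The C26 tumour libraries alone were low, with a difference of -2.41 ± 0.45 (edgeR adjusted p = 0.0413).

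Npr3, the clearance receptor for natriuretic peptides, had 2.76 and 3.30 CPM in C26 tumour muscle and 12.7 and 13.3 CPM in C26 control muscle, against 35 and 33.6 CPM in LLC tumour muscle and 13.6 and 22.7 CPM in LLC control muscle. It was lowest in C26 tumour and highest in LLC tumour muscle, with a difference of -3.02 ± 0.52 (edgeR adjusted p = 0.0301). Apln, the peptide hormone apelin, Pde7b, a cyclic AMP phosphodiesterase, and Cyp4f39, a cytochrome P450, were other genes that fell in C26 without a called LLC effect, with differences of -3.97, -1.39 and -2.79. Nnat, the imprinted neuronatin gene, was expressed at a low level and differed by -7.02 ± 1.15 (edgeR adjusted p = 0.0242), and its controls differed too, with 6.45 and 4.49 CPM in C26 control muscle and 0.552 and 0.338 CPM in LLC control muscle.

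Genes that rose in C26 without a called LLC effect came from varied processes. Tmem176a, a transmembrane protein related to the MS4A family, had 21.7 and 23.2 CPM in C26 tumour muscle and 3.24 and 2.45 CPM in C26 control muscle, against 3.98 and 4.57 CPM in LLC tumour muscle and 2.63 and 3.08 CPM in LLC control muscle. Its C26 tumour values were about alike and above the 6 others, with a difference of 2.40 ± 0.38 (edgeR adjusted p = 0.0213). Lamp2, a lysosomal membrane protein needed for autophagy, had 135 and 132 CPM in C26 tumour muscle and 61.5 and 67.0 CPM in C26 control muscle, against 66.0 and 68.2 CPM in LLC tumour muscle and 61.9 and 63.4 CPM in LLC control muscle. Its difference of 0.96 ± 0.19 was the smallest in size among the 75 (edgeR adjusted p = 0.0481) and was called in 0 of the 8 fits without a library. It was the only called member of 39 autophagy and lysosome genes, whose median effects were 0.36 in C26 and 0.37 in LLC. B4galt1, a galactosyltransferase, and Asb11, a subunit of a ubiquitin ligase that is expressed in muscle, rose in C26 with differences of 1.68 and 2.13.

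Opposite movement was called for few genes. Mustn1, a small nuclear protein of the musculoskeletal system, had 163 and 181 CPM in C26 tumour muscle and 44.4 and 47.2 CPM in C26 control muscle, against 25.3 and 26.7 CPM in LLC tumour muscle and 52.3 and 174 CPM in LLC control muscle. It rose in C26 and fell in LLC, although the LLC controls differed from each other, and the difference was 4.03 ± 0.63 (edgeR adjusted p = 0.0213). Hes1, the Notch target that holds muscle stem cells undifferentiated, had 5.08 and 7.10 CPM in C26 tumour muscle and 16.4 and 15.9 CPM in C26 control muscle, against 32.1 and 24.5 CPM in LLC tumour muscle and 15.5 and 14.3 CPM in LLC control muscle. The controls were alike and the tumour groups lay on either side of them, with a difference of -2.33 ± 0.40 (edgeR adjusted p = 0.0301).

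Pdzrn3, a ubiquitin ligase of the neuromuscular junction, had 59.4 and 61.0 CPM in C26 tumour muscle and 119 and 114 CPM in C26 control muscle, against 207 and 155 CPM in LLC tumour muscle and 97.5 and 95.2 CPM in LLC control muscle (difference -1.86 ± 0.27, edgeR adjusted p = 0.013). Pcca, a subunit of the mitochondrial enzyme that carboxylates propionyl-CoA, and Castor2, a regulator of the amino acid branch of mTORC1, also fell in C26 and rose in LLC, with differences of -1.50 and -1.78. Slc38a4, a neutral amino acid transporter, went the other way with a difference of 2.37. The Slc38a4 controls differed too, with means of 32.2 CPM in C26 and 90.9 CPM in LLC controls (edgeR adjusted p = 0.0169). For Pcca, Castor2 and Slc38a4, the C26 and LLC effects were called separately in opposite directions.

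Cidec and Lgals12 are genes of fat cells that were read at few counts. Cidec, a lipid droplet protein of adipocytes, had 1.21 and 0.167 CPM in C26 tumour muscle and 3.75 and 3.44 CPM in C26 control muscle, against 0.756 and 1.19 CPM in LLC tumour muscle and 0 CPM in both LLC control libraries. The LLC tumour libraries held 51 counts, at least 16.4-fold higher than LLC controls with the floor set at 3 counts over the group, so the fitted difference of -10.16 depends on the prior count. Lgals12, a galectin of adipocytes that was among the 75 and outside the naming rule, had 0 counts in C26 tumour muscle and 39 in C26 control muscle, at least 13.5-fold lower in the tumour group by the same floor. Cbx3-ps7, a pseudogene, had 90 counts in C26 tumour muscle and 0 in C26 control muscle, against 0 in LLC tumour muscle and 38 in LLC control muscle, at least 28.9-fold higher under C26 and at least 13.1-fold lower under LLC.

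Of 13 adipocyte markers, 1 rose and 6 fell in C26, beside 11.5% and 9.8% of all genes, and 2 rose and 0 fell in LLC, beside 7.39% and 6.23%. The median effects were -1.91 and 1.39. The median difference was -2.42 and 1 member, Cidec, was called. The summed level of the list was 881 and 581 CPM in C26 tumour muscle and 1419 and 1864 CPM in C26 control muscle, against 2121 and 2475 CPM in LLC tumour muscle and 2958 and 2654 CPM in LLC control muscle. The sum thus was lower in the LLC tumour libraries while the median member was higher. The controls of both models also differed, by a median of 3.20 for C26 over LLC controls. Adipoq, the fat hormone adiponectin, had 1.37 and 0.233 CPM in C26 tumour muscle and 5.05 and 4.72 CPM in C26 control muscle, against 1.15 and 1.63 CPM in LLC tumour muscle and 0.425 and 0.0751 CPM in LLC control muscle. The difference of -5.10 ± 1.05 was not called (edgeR adjusted p = 0.0519). Whether the amount of fat left on the muscle differed was not tested.

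Summed red-cell markers were highest in LLC tumour muscle. Of 11 erythroid markers, 0 rose and 1 fell in C26, beside 11.5% and 9.8% of all genes, and 6 rose and 1 fell in LLC, beside 7.39% and 6.23%. The median difference was -3.04, and edgeR called 0 members, with 7 lower at an unadjusted p under 0.05 (6.14% of all genes) and 3 by DESeq2 (1.4%). The summed level was 328 and 162 CPM in C26 tumour muscle and 402 and 382 CPM in C26 control muscle, against 912 and 2657 CPM in LLC tumour muscle and 490 and 403 CPM in LLC control muscle. LLC tumour replicate 2 was the highest library, and both LLC tumour libraries exceeded the 6 others. The part of blood in the tissue was not tested. MHC class I and II genes present peptides to T cells. Of 16 tested, 4 rose under LLC and 0 under C26, beside 7.39% and 11.5% of all genes. All 16 had a negative difference, with a median of -1.27. Again edgeR called 0, with 8 lower at an unadjusted p under 0.05 (6.14% of all genes) and 2 by DESeq2 (1.4%). Between controls, 2 of the 16 MHC genes were called higher in C26, beside 1.74% of all genes. These genes vary in sequence between mouse strains, and their close copies make the assignment of reads uncertain.

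**Figure D3:**
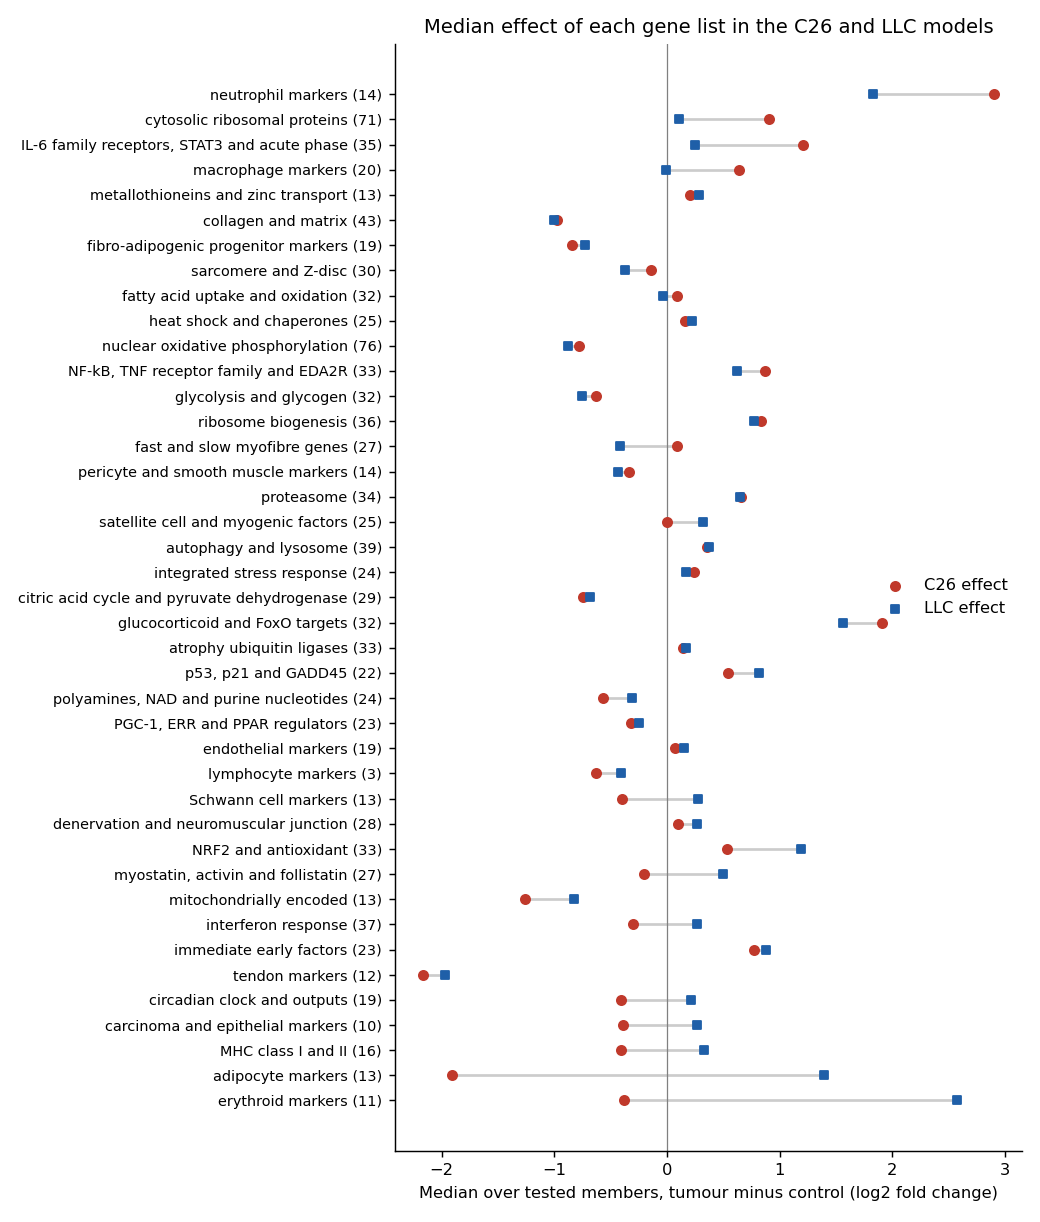
Median log2 effect of tumour over control for 41 gene lists, with the number of tested genes in brackets. Red circles show the C26 effect and blue squares the LLC effect, and lists are ordered by the median difference of effects. Ribosomal protein and IL-6 lists lie further right in C26, NRF2, MHC, adipocyte and erythroid lists further right in LLC, and proteasome and ribosome biogenesis lists lie at about the same place in both.

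For Fbxo32 and Trim63, the ubiquitin ligases most tied to atrophy, no difference was called. Fbxo32 encodes atrogin-1 and had 1244 and 1761 CPM in C26 tumour muscle and 155 and 183 CPM in C26 control muscle, against 1972 and 2013 CPM in LLC tumour muscle and 194 and 265 CPM in LLC control muscle. All tumour libraries were far above all controls. It rose by 3.15 ± 0.35 in C26 and 3.12 ± 0.35 in LLC (edgeR adjusted p = 0.000103 and 0.000185), and the difference was 0.03 ± 0.45 with a 95% interval of -0.93 to 1.00. Trim63, which encodes MuRF1, had 1189 and 2444 CPM in C26 tumour muscle and 182 and 193 CPM in C26 control muscle, against 1286 and 1752 CPM in LLC tumour muscle and 195 and 223 CPM in LLC control muscle. Its difference was 0.41 ± 0.62 with a 95% interval of -0.91 to 1.73, so an equal rise was not shown. The interval is not a detection limit, and differences larger than its ends could also go uncalled. Of 33 tested members of the atrophy ubiquitin ligase list, 7 rose and 4 fell in C26 and 7 rose and 0 fell in LLC. Over all genes, 11.5% rose and 9.8% fell in C26, and 7.39% rose and 6.23% fell in LLC. The edgeR test called 0 for the difference, with 3 higher and 1 lower at an unadjusted p under 0.05 (6.34% and 6.14% of all genes). DESeq2 called 2 higher (0.951% of all genes).

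In the median, the gene groups around them moved in the same direction in both models. Of 34 proteasome genes, 17 rose in C26 and 15 in LLC (11.5% and 7.39% of all genes), with medians of 0.66 and 0.65. Nuclear oxidative phosphorylation genes fell in 47 of 76 in C26 and 56 of 76 in LLC, beside 9.8% and 6.23% of all genes. Their medians were -0.78 and -0.88. In both lists edgeR called 0 genes for the difference, with 0 and 3 higher at an unadjusted p under 0.05 (6.34% of all genes). DESeq2 called 0 in both lists. Of 32 glucocorticoid and FoxO targets, 22 rose in C26 and 18 in LLC (11.5% and 7.39% of all genes), with medians of 1.91 and 1.57. The edgeR test called the difference for 1, Mt1. At an unadjusted p under 0.05, 6 of these targets were higher and 6 lower (6.34% and 6.14% of all genes). DESeq2 called 4 higher and 4 lower (0.951% and 1.4% of all genes). By these 2 measures members of this list differed more often than all genes, in both directions.

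Members of the non-canonical NF-kB pathway had larger values of the LLC effect, without a call. Nfkb2, the p100 subunit of the non-canonical pathway, had 43.8 and 61.9 CPM in C26 tumour muscle and 8.25 and 6.75 CPM in C26 control muscle, against 63.4 and 101 CPM in LLC tumour muscle and 5.09 and 6.24 CPM in LLC control muscle. It rose in both models, and the difference was -1.04 ± 0.38 (edgeR adjusted p = 0.261, interval -1.85 to -0.24). Relb, its partner, differed by -1.18 ± 0.38 (edgeR adjusted p = 0.219), and Eda2r, the ectodysplasin A2 receptor that acts upstream of that pathway in muscle, by -0.77 ± 0.51 (edgeR adjusted p = 0.589). The NF-kB list as a whole did not share this direction, with a median difference of 0.15 over 33 genes. Both edgeR and DESeq2 called 0 of them. At an unadjusted p under 0.05, 2 were higher and 5 lower (6.34% and 6.14% of all genes).

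**Figure D4:**
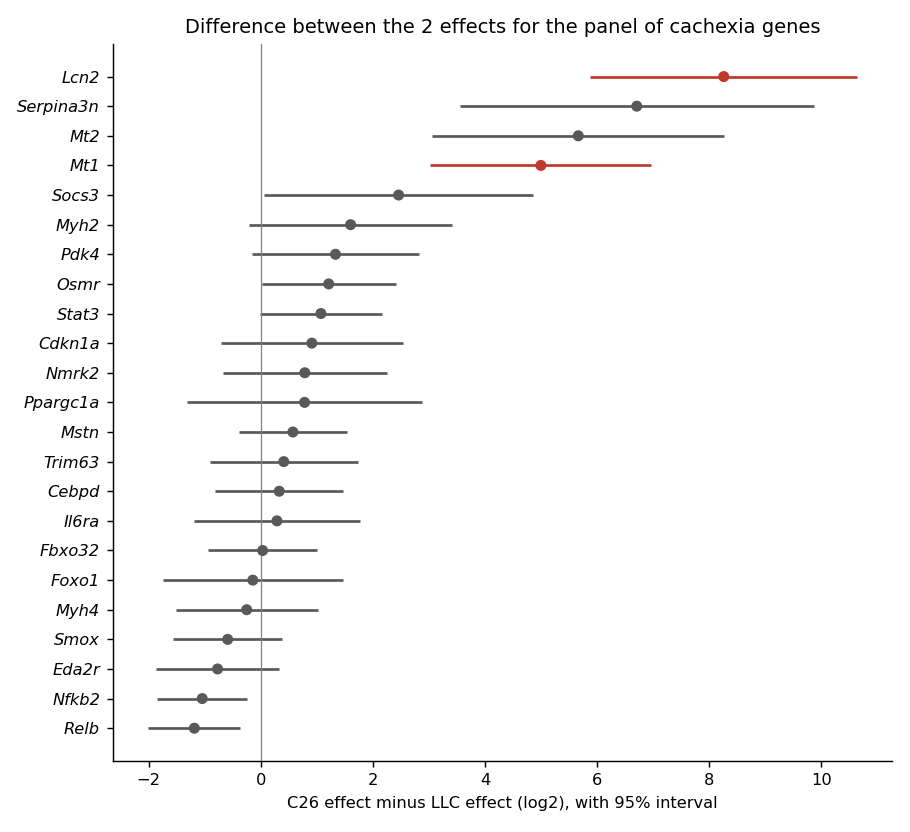
C26 effect minus LLC effect on the log2 scale for 23 cachexia genes, with 95% intervals. Red marks the 2 genes with an adjusted p under 0.05 (edgeR), Lcn2 and Mt1. Fbxo32, Trim63, Foxo1, Cebpd and Il6ra lie close to 0, Nfkb2 and Relb lie below it.

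Genes that fell in both models by different amounts numbered 4. Foxo6, a forkhead transcription factor, had 0.667 and 0.467 CPM in C26 tumour muscle and 8.51 and 6.34 CPM in C26 control muscle, against 2.94 and 3.46 CPM in LLC tumour muscle and 8.28 and 8.12 CPM in LLC control muscle. Trp53inp2, a protein of autophagosomes and the nucleus, had 72.7 and 70.2 CPM in C26 tumour muscle and 408 and 351 CPM in C26 control muscle, against 303 and 269 CPM in LLC tumour muscle and 512 and 531 CPM in LLC control muscle. Both fell further in C26, with differences of -2.34 ± 0.41 and -1.54 ± 0.28 (edgeR adjusted p = 0.0303 and 0.0383), as did Fam131a with -2.08 ± 0.41 (edgeR adjusted p = 0.0481). Dhrs7c, a dehydrogenase of muscle sarcoplasmic reticulum, had 92.8 and 72.7 CPM in C26 tumour muscle and 206 and 192 CPM in C26 control muscle, against 36.0 and 26.3 CPM in LLC tumour muscle and 232 and 194 CPM in LLC control muscle. It was the member that fell further in LLC, with a difference of 1.51 ± 0.30 (edgeR adjusted p = 0.0481).

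**Figure D5:**
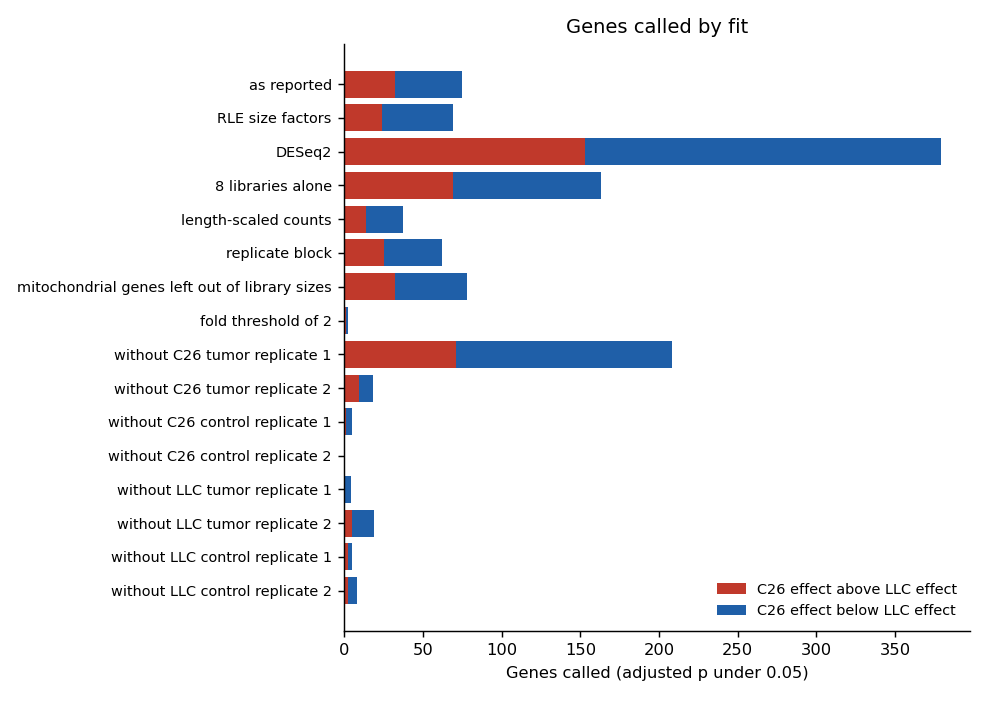
Genes called for the difference of effects in the fit as reported, in 7 alternative fits and in 8 fits that leave out 1 library each. The alternative with no filter on low counts, which called 726, is not drawn. Red is the number with the C26 effect above the LLC effect and blue the number below it. DESeq2 called 379 and the fit to 8 libraries 163, and 7 of the 8 fits without a library called 19 or fewer, while the fit without C26 tumour replicate 1 called 208.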

How the data were processed

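Poly(A) RNA of mouse TA muscle was sequenced as directional paired-end libraries, per the labels. The authors deposited Salmon transcript estimated counts (expected counts), which were summed here per gene with GENCODE M21 annotation and rounded to whole numbers; the deposited TPM values and effective lengths entered only the length-scaled alternative. Per the submitters' processing notes, bcl2fastq 2.20 and Salmon were used, with build mm10; the Salmon version, its strand setting and bias options are stated in none of the labels. Between 0.486% and 0.685% of estimated counts in the 8 libraries came from 867 transcripts without a gene match and were left out of library sizes. Of 29456 genes with counts, 16096 passed filterByExpr.

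edgeR 4.0.16 (R 4.3.3) fitted 9 groups over 18 libraries with TMM scaling, leaving 9 residual degrees of freedom. The contrast of the C26 and LLC effects was tested by the quasi-likelihood test with Benjamini-Hochberg adjustment over all tested genes, called under 0.05. CPM were taken on TMM-scaled library sizes. Named genes are the 10 largest differences in each direction at 5 CPM or more, a panel of 23 cachexia genes, up to 6 members of smallest p per gene list, and genes chosen by the class of their 2 effects, with up to 10 of opposite sign. The members and lists were chosen with earlier results of these data known. Alternatives were DESeq2 1.42.0, RLE size factors, no filter, 8 libraries alone, length-scaled counts, a replicate block, mitochondrial genes left out of library sizes, a fold threshold of 2 and leaving out each library. Replicates are labelled biological, and nothing states that numbers pair animals. The contrast was tested on simulated data. For genes with many counts, counting error is small, and the spread between libraries, estimated over all 9 groups, sets the precision. For genes with few counts in a group, counting error also matters. Promoters came from RefSeq on GRCm38.p6. The authors' own comparison tables were not used. Of the named genes called for the difference, 1 is not reported here.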

Additional observations from a re-analysis of the deposited data

Results flagged for a closer look

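All values here are the C26 effect minus the LLC effect on the log2 scale, for 48 named genes in which the test of that difference itself passed (edgeR quasi-likelihood test, adjusted p under 0.05). The acute-phase genes Lcn2 at 8.26 and Lrg1 at 2.26, the metallothionein Mt1 at 5.00 and the lysosomal gene Lamp2 at 0.96 had a higher effect in C26. The clock output genes Dbp at -3.66, Hlf at -1.93 and Tef at -1.22 and the NRF2 list members Srxn1 at -2.03 and Ephx1 at -1.90 had a lower one. Genes called in opposite directions in both models were Mustn1 at 4.03, Slc38a4 at 2.37, C030037D09Rik at 2.39, Cbx3-ps7 at 15.76, Pdzrn3 at -1.86, Pcca at -1.50, Hes1 at -2.33, Castor2 at -1.78, Cidec at -10.16 and Cyp2e1 at -5.09; the values of Cbx3-ps7 and Cidec depend on the prior count, since groups were at 0 counts. Genes that fell in both models by unequal amounts were Foxo6 at -2.34, Trp53inp2 at -1.54, Fam131a at -2.08 and Dhrs7c at 1.51. The other positive differences were Agt at 3.24, Togaram2 at 2.25, Tmem176a at 2.40, B4galt1 at 1.68, Olfm1 at 1.74, 2310015K22Rik at 4.02, Vwa3a at 3.92, Ano5 at 1.89, Syt12 at 3.12, Asb11 at 2.13 and Dtna at 1.37. The other negative differences were Ccn1 at -3.04, Cyp4f39 at -2.79, Flrt1 at -3.14, Pde7b at -1.39, Mid1ip1 at -2.07, Nnat at -7.02, Apln at -3.97, Npr3 at -3.02, Slc44a1 at -1.44, Prkag3 at -2.41, Igfbp5 at -3.33, Igfn1 at -3.37, Slc6a9 at -2.86 and Zfp503 at -2.42.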

How the results depend on the processing

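The count of 75 genes with different effects became 379 with DESeq2, 726 with no filter on low counts, 163 with the 8 libraries alone, 37 with length-scaled counts and 2 with a fold threshold of 2, and ranged from 0 to 208 when a library was left out. RLE size factors gave 69 and leaving mitochondrial genes out of library sizes 78. The filter and the fold threshold change which genes can be called. Fits without a library also tested more genes, 16978 to 17086 against 16096. Length-scaled counts tested 16252 and the 8 libraries alone 15178. The cause of these and the other shifts was not tested. The fold threshold gave 331 genes for the C26 effect, 161 for the LLC effect and 180 between controls. Between controls, no filter gave 1265 and the 8 libraries alone 779. Without a library the ranges were 1020 to 3359 for C26, 479 to 2328 for LLC and 187 to 521 between controls. The correlation of 0.411 became 0.193 with no filter, 0.482 with 8 libraries and 0.382 with length-scaled counts, and ranged from 0.308 to 0.353 without a library. None of the 49 named calls changed direction in any of these fits. Of the 75 genes, 31 were called in all 7 alternatives that leave out no replicate, the fold threshold set aside. Leaving out a library kept 88 and ended 304 calls of the 49 named genes.

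With the replicate number as a block, 62 genes were called for the difference of effects, against 75 without it. The numbers are not said to pair animals, and same-numbered libraries did not deviate together (r = -0.0754 in C26 and 0.00946 in LLC). The block ended the call of 8 named genes, Fam131a, Lamp2, Syt12, Dhrs7c, Asb11, Igfn1, Slc6a9 and Zfp503. Length-scaled counts ended 19 named calls, Lrg1 and Tef among them. Depth limits the genes with under about 1 CPM, such as Nnat, Cidec and Foxo6 in C26 tumour muscle.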

Other observations

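Epithelial markers, listed because C26 and LLC are carcinoma lines, were low in all 8 libraries. The summed level of 17 listed genes was 5.8 and 7.1 CPM in C26 tumour muscle and 4.1 and 6.8 CPM in C26 control muscle, against 17.3 and 18.6 CPM in LLC tumour muscle and 5.9 and 3.0 CPM in LLC control muscle. Most of the LLC tumour sum was Elf3, an epithelial transcription factor, at 12.8 and 12.8 CPM, while Epcam, a defining epithelial marker, had 0.0795 and 0.0372 CPM there. Elf3 had 3.30 and 3.77 CPM in C26 tumour muscle and 0.360 and 0.191 CPM in C26 control muscle, against 0.170 and 0.301 CPM in LLC control muscle. It rose in both models, by 3.67 in C26 and 5.72 in LLC (edgeR adjusted p = 0.0091 and 0.0015), and its difference of -2.05 ± 1.29 was not called (edgeR adjusted p = 0.564). The part of tumour cells in these values was not tested.

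Cebpb and Stat5b, transcription factors of cytokine signalling, were members of the IL-6 list that went against its median. Cebpb had 88.7 and 152 CPM in C26 tumour muscle and 68.7 and 55.6 CPM in C26 control muscle, against 99.5 and 213 CPM in LLC tumour muscle and 25.5 and 30.9 CPM in LLC control muscle. It rose in both models, and the difference of effects was negative, a value of -1.51 ± 0.45 that was not called (edgeR adjusted p = 0.178). Stat5b had 144 and 164 CPM in C26 tumour muscle and 172 and 153 CPM in C26 control muscle, against 318 and 306 CPM in LLC tumour muscle and 149 and 188 CPM in LLC control muscle. Its difference was -0.96 ± 0.25 (edgeR adjusted p = 0.121).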
